A study of Danio rerio with 7 samples.

Results

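Guidance ligands and receptors are the secreted and membrane-bound proteins that steer migrating cells and growing axons. The set described here holds every gene whose name in the deposited expression table begins with a name of the ephrins (efna, efnb) and Eph receptors (epha, ephb), the semaphorins of classes 3 to 7 (sema), plexins (plxn) and neuropilins (nrp), the Slit ligands and Robo receptors, or cxcl12, cxcr4 and cxcr7. That rule, which used names and no measured value, found 102 of the 33735 genes. Of these, 31 are ephrins and Eph receptors, 56 are semaphorins, plexins and neuropilins, 11 are Slit and Robo genes and 4 are cxcl12 and cxcr4 genes. No gene carries the name cxcr7 in the table.

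The study profiled sox10-positive cells, a population that includes the neural crest, which were taken by cell sorting from zebrafish (Danio rerio) embryos. The first group of embryos was uninjected and kept in DMSO, the solvent. The next was injected with a ctr9 morpholino and kept in DMSO, and the last was injected with the same morpholino and kept in 32 µM progesterone. For every group, DMSO included, the labels give exposure beginning at 50% epiboly and ending at 15 somites, and embryos raised at 28 °C. Ctr9 belongs to the PAF1 complex, an elongation factor of RNA polymerase II. Morpholinos are antisense oligonucleotides that interfere with the translation or the splicing of an RNA. Each of the 3 groups had 2 libraries: the uninjected ones are named in the table by 5 ng and 10 ng, and the others by experiment 1 and experiment 2. Uninjected embryos in progesterone were not analysed here, so what progesterone does without the morpholino cannot be told from these libraries. The labels do not give the age of each group apart from the end of exposure, the strain, the reporter behind the sort or the number of embryos pooled, and they do not say whether the libraries within a group derive from separate clutches.

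As background, neural crest cells leave the dorsal neural tube and travel in streams to distant sites. Ephrins and Eph receptors, both held on cell membranes, mostly act by repulsion at cell contacts and keep streams and boundaries apart. Class 3 semaphorins are secreted and bind neuropilins, which pass the signal on through plexins, while most semaphorins of the other classes sit in membranes and bind plexins directly. Slit proteins are secreted repellents read by Robo receptors, and the chemokine Cxcl12 draws cells that carry Cxcr4.

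All levels below are FPKM, a fragment count corrected for transcript length and library size, whose exact scaling between libraries is not known. Unless another order is stated, 6 values are listed in the order uninjected 5 ng, uninjected 10 ng, morphant DMSO experiment 1 and 2, morphant progesterone experiment 1 and 2. The targeted gene, ctr9, was at 16.8, 19.95, 42.2, 36.7, 26.2 and 20.6 FPKM, higher in all morphant libraries than in the uninjected pair. A morpholino need not lower the RNA of its target, so this value does not measure the knockdown. The sort gene sox10 was at 134, 147, 160, 125, 191 and 60.01 FPKM, whereas foxd3, an early neural crest factor, was at 0.659 in the 5 ng library and under 0.001 in the rest. A list of 28 neural crest genes that holds both summed to 1009, 1126, 1004, 832, 1317 and 541 FPKM. Of these 28 genes, 22 were tested and 3, foxd3 among them, stayed under 1 FPKM throughout. A list of 13 tested neural genes, which includes elavl3, summed to 79.5 and 104 FPKM in uninjected, 146 and 116 in morphant DMSO and 25.5 and 21.03 in morphant progesterone libraries. Of 16 endothelial genes, 10 stayed under 1 FPKM throughout, among them kdrl and cdh5 with highest values of 0.574 and 0.363. The others were fli1a, tek, stab2, tal1, flt4 and etv2. Highest values were 2.70 for tek, 2.26 for stab2, 1.67 for tal1 and 1.02 for flt4. etv2 was at 1.94 and 2.48 FPKM in the uninjected libraries and was listed at 0 in all morphant libraries. The list summed to 51.5, 69.6, 40.7, 25.6, 18.1 and 4.31 FPKM, most of it fli1a, which neural crest also expresses. Epidermal genes summed to 169, 173, 131, 223, 88.3 and 98.1 FPKM, highest in morphant DMSO experiment 2. Otic genes summed to 31.3 to 93.4 FPKM, and germ cell genes summed to at most 1.44 FPKM. The otic sum includes sox9a, which is also on the neural crest list, at 12.1 to 53.5 FPKM. The part of these other cell types in the values below was not tested.

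The 2 progesterone libraries stood apart from the rest. They held 11776 and 9575 genes at 1 FPKM or more, against 13055 to 13528 in the other 4, and experiment 2 summed to 218008 FPKM against 356101 to 366905 elsewhere. Across all tested genes the median log2 fold change was -0.58 for progesterone against DMSO in morphants, -0.67 for morphants in progesterone against uninjected embryos and -0.07 for morphants against uninjected embryos in DMSO. A relative change below is a gene's log2 fold change minus that median. Fewer cells of a type and less RNA per cell cannot be told apart in bulk samples such as these.

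Of the 102 guidance genes, 61 had a mean of at least 1 FPKM over the libraries and were tested, 34 were measured below it and 7 were listed at 0 throughout. The 7 were PLXNA1 (1 of 3), 1 of the entries named plxna1 (ENSDARG00000077486), PLXND1, SEMA7A, sema4ga, SEMA4G (2 of 2) and sema4gb. In uninjected cells 20 guidance genes (19.6%) averaged 10 FPKM or more, against 13.0% of all genes, and 11 (10.8%) were listed at 0, against 32.1% of all genes. The set was led by a single gene, nrp2a (ENSDARG00000096546), a receptor subunit for class 3 semaphorins, which averaged 147 FPKM and ranked 311 among all genes. After it came robo3 at 46.6, plxna3 at 45.9, ephb4b at 33.95 and nrp2b at 29.7 FPKM, so the 5 highest members were all receptors.

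**Figure D1:**
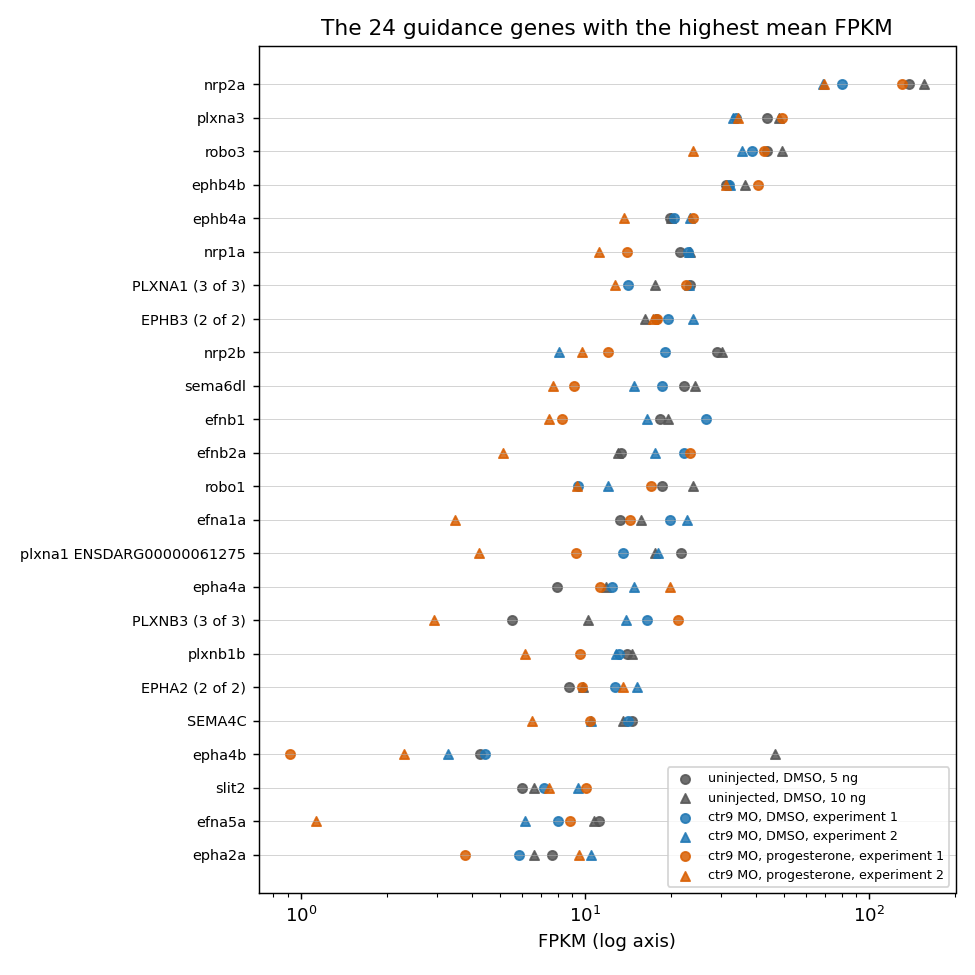
FPKM (log axis) of the 24 guidance genes with the highest mean, with 1 point per library, coloured by group. nrp2a lies right of every other gene, from 68.6 to 156 FPKM, and epha4b is spread most because its 10 ng uninjected library stands at 46.5 FPKM.

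Receptors also made up most of the summed signal. In the 5 and 10 ng uninjected libraries the 4 neuropilins summed to 193 and 215 FPKM and the 19 plexins to 141 and 137. The 11 class 3 semaphorins, ligands of neuropilins, summed to 7.83 and 10.2. The 22 membrane semaphorins of the other classes summed to 64.6 and 70.9, and the ratio of all semaphorins to plexins was 0.515 and 0.591. Robo receptors summed to 71.3 and 77.6 FPKM against 14.7 and 17.8 for Slit ligands. The ephrin to Eph ratio was 0.766 and 0.515. The Eph sum of the 10 ng library includes epha4b at 46.5 FPKM, against 4.28 in the 5 ng library.

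**Figure D2:**
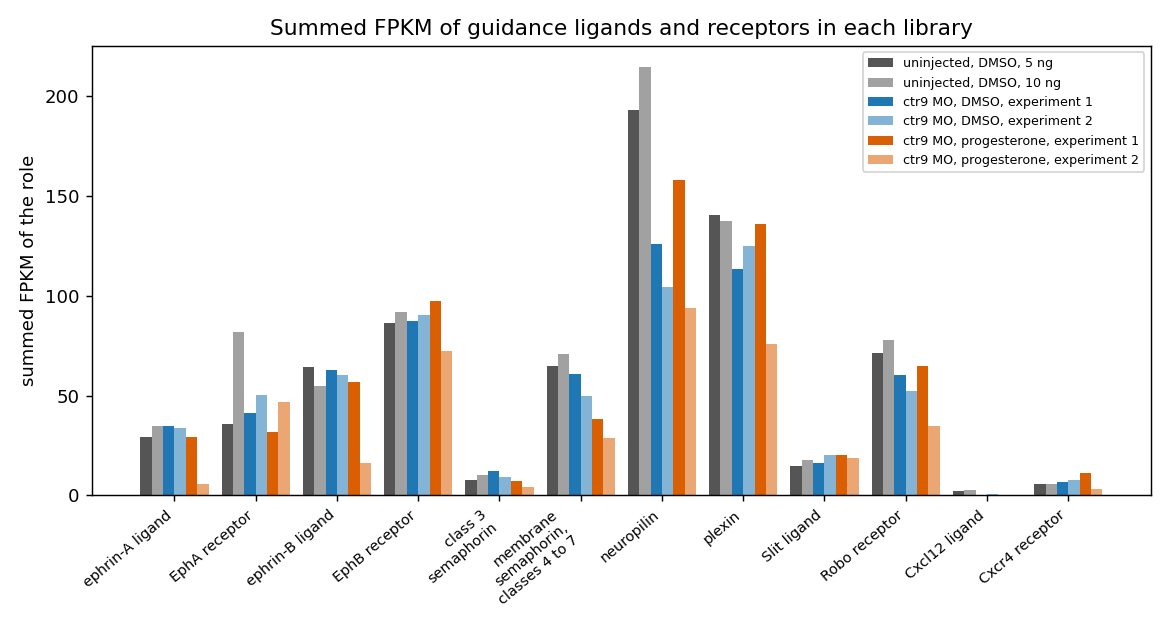
Summed FPKM of each role in each of the 6 libraries (bars, no error because each bar is 1 library). The neuropilin bars reach 193 and 215 FPKM for uninjected and 126 and 104 for morphant DMSO libraries, and both ephrin classes are lowest in progesterone experiment 2, at 5.85 and 16.4 FPKM.

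The first comparison set ctr9 morphants against uninjected embryos, both in DMSO, and is called the change with the morpholino below. No group had a control morpholino or a mock injection. In comparisons with uninjected embryos, injection and loss of Ctr9 therefore cannot be told apart. Uninjected libraries are named by amount and morphant ones by experiment, so a difference in preparation could not be told apart from group either. No guidance gene passed an adjusted p of 0.05 by limma in either direction, where 0% of all 13145 tested genes were called higher and 0.0152% lower. At an unadjusted p under 0.05, 0 guidance genes were higher (background 1.4%) and 2 were lower, nrp2a and nrp2b (background 2.67%), and with median-ratio scaling, which divides each library by the median of its genes' ratios to their geometric mean over libraries, 0 were higher (background 1.76%) and 3 lower (background 2.39%). Both groups' values did not overlap for 13 members in the higher and 20 in the lower direction, 21.3% and 32.8% of the 61, against 16.5% and 26.2% of all genes. Median-ratio scaling gave 15 higher (background 22.8%) and 16 lower (background 22%), and libraries centred on their own median gave 14 (background 21.3%) and 16 (background 23.5%). Under all 3 scalings, 11 were separate in the higher direction (background 15.9%) and 15 in the lower (background 21.1%). Those shares lie close to the background and are no result about the set. The median relative change of the 61 genes was -0.09, with 26 above the median of all genes.

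The second comparison asked what progesterone changed in morphants. By limma, 0 guidance genes and 0 genes of all tested were called at an adjusted p of 0.05 (background 0% in either direction). At an unadjusted p under 0.05, 0 guidance genes were higher (background 1.88%) and 8 lower (background 19.8%), and with median-ratio scaling these became 5 higher (background 7.46%) and 2 lower (background 9.49%). As deposited, 3 members were separate in the higher direction, against 6.87% of all genes, and 24 in the lower, against 44.5%. With median-ratio scaling the counts were 15 (background 20.1%) and 15 (background 24.3%), and with centred libraries 16 (background 20.9%) and 12 (background 23.5%). Under all 3 scalings the same 3 genes, slit1a, sema5ba and plxna3, were higher (background 6.87%), and 10 were lower (background 21.9%). Those 10 were ephb2a, efna1a, efnb1, efnb2b (ENSDARG00000074050), sema6ba, sema6dl, sema3gb, plxna1 (ENSDARG00000061275), plxnb1a and plxnb3. The median relative change was 0.10, with 34 of 61 above the median of all genes.

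The last comparison set morphants in progesterone against uninjected embryos in DMSO, and shares libraries with both others. Again 0 guidance genes were called by limma (background 0% higher and 0.0152% lower), the smallest adjusted p being 0.12 for sema6dl. Unadjusted, 0 were higher (background 1.74%) and 14 lower (background 23.1%), or 7 higher (background 7.42%) and 4 lower (background 8.76%) with median-ratio scaling. As deposited, 3 were separate in the higher direction (background 5.91%) and 30 in the lower (background 53.1%). With median-ratio scaling these were 17 (background 21.4%) and 15 (background 26.9%), and with centred libraries 16 (background 21.5%) and 14 (background 26.8%). Under all 3 scalings slit2, sema5ba and plxna4 were higher (background 5.91%), and 13 genes were lower (background 24.2%). The relative median was 0.05, with 34 of 61 genes above the median of all.

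Calls appeared when progesterone experiment 1 was left out, so that the treated group was the experiment 2 library alone, assumed to vary like the other groups. Progesterone against DMSO then called 14 of 60 guidance genes lower (background 30.4%) and 0 higher (background 2%), and with median-ratio scaling 7 higher (background 8.85%) and 3 lower (background 12.6%). The 14 included efna1a, efna5a, efnb2a and PLXNB3 (3 of 3), and the 7 included nrp2a, plxna3, ephb4b and epha4a. Against uninjected embryos, 19 were lower (background 32.6%) and 0 higher (background 1.84%) without that library, or 6 higher (background 8.07%) and 3 lower (background 11.9%) with median-ratio scaling. When experiment 2 was left out instead, 0 guidance genes were called against morphants in DMSO (background 0.141% higher and 0.0372% lower) and 0 against uninjected embryos (background 0.246% higher and 0.216% lower). The calls therefore rest on which progesterone library is used.

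**Figure D3:**
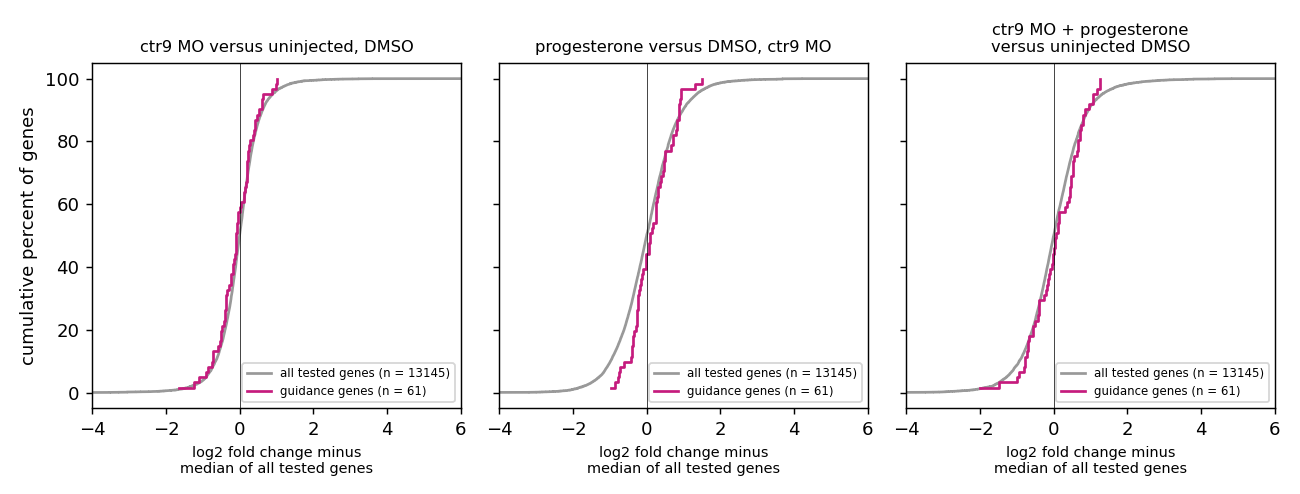
Cumulative percent of genes against log2 fold change minus the median of all tested genes, for the 61 tested guidance genes and all 13145 tested genes in each comparison. The curve for guidance genes crosses 50% at -0.09, 0.10 and 0.05 from left to right.

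Ephrin ligands comprise the transmembrane ephrin-B and the lipid-anchored ephrin-A proteins. With progesterone, 1 of 6 tested genes of each class, efnb1 and efna1a, was lower at an unadjusted p under 0.05 (background 19.8%), and 0 of either class were higher. efnb1 (ENSDARG00000007723) was at 18.3, 19.6, 26.7, 16.5, 8.28 and 7.49 FPKM. Both progesterone libraries were below all 4 others, while the morphant DMSO pair overlapped the uninjected pair. The log2 fold change was -1.31 ± 0.35 (SE, n = 2 against 2) for progesterone against DMSO in morphants, with a limma adjusted p of 0.15, and -1.17 ± 0.35 against uninjected embryos, with a limma adjusted p of 0.14. With median-ratio scaling these were -0.69 ± 0.30 and -0.45 ± 0.30. efna1a showed another order, at 13.2, 15.7, 19.9, 22.9, 14.4 and 3.496 FPKM, highest in the morphant DMSO libraries with no overlap with either group. Its change with progesterone was -1.43 ± 0.58 (limma adjusted p 0.23), or -0.84 ± 0.44 with median-ratio scaling, and the 2 progesterone libraries themselves lay far apart.

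The zebrafish copies of ephrin-B2 differed from each other. efnb2a was at 13.3, 13.0, 22.4, 17.6, 23.4 and 5.14 FPKM, so both morphant DMSO libraries were above the uninjected pair and the progesterone pair spanned all other values. The table lists efnb2b under 2 identifiers, and how reads were divided between such entries of 1 name is not known. ENSDARG00000074050 was at 7.12, 5.98, 4.19, 3.33, 2.28 and 0.864 FPKM, with each of the 3 groups below the one before and no overlap. ENSDARG00000003783 was at 6.90, 4.51, 3.56, 3.91, 3.24 and 1.31 FPKM, in the same order of groups as deposited. Its groups were not separate under all 3 scalings in any comparison. Those of ENSDARG00000074050 were separate in each, in the lower direction (background 21.1%, 21.9% and 24.2%). For ENSDARG00000074050 the change from uninjected to morphants in progesterone was -1.61 ± 0.42 on the log2 scale, with a limma adjusted p of 0.13.

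The 6 tested ephrin-A genes summed, with the 2 below the filter, to 29.3, 34.9, 34.7, 33.7, 29.3 and 5.85 FPKM, and the 6 ephrin-B genes to 64.2, 54.9, 63.1, 60.3, 57.0 and 16.4 FPKM. Only progesterone experiment 2 stood out in those sums, and experiment 1 lay within 3 FPKM of an uninjected library in both. efna5a was at 8.86 in progesterone experiment 1 and 1.13 in experiment 2, with 6.12 to 11.2 FPKM in the other libraries, and efnb3a was at 13.5 and 0.364, with 1.69 to 10.6. Those pairs show that the 2 progesterone libraries did not give the same ephrin levels. efna5b was listed at 0 in both progesterone libraries and was at 0.258 to 3.68 FPKM elsewhere. EFNA2 (2 of 2), at 0.383 to 3.40 FPKM, was highest in progesterone experiment 1 and lowest in experiment 2. efna2 and efna3b stayed at or below 2.56 FPKM, efnb3b ranged from 1.20 to 11.4, and efna1b and efna3a did not pass 0.816 FPKM.

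Among the receptors, the summed EphB level differed little between libraries other than progesterone experiment 2. The 8 EphB genes, receptors mainly of ephrin-B, summed to 86.2, 92.1, 87.6, 90.5, 97.6 and 72.3 FPKM. ephb4b (ENSDARG00000027112), 1 of a pair of copies of a receptor known from the veins of vertebrates, was at 31.3, 36.6, 32.1, 32.4, 40.5 and 31.3 FPKM, with all groups overlapping. Its log2 fold change was -0.07 ± 0.29 with the morpholino and 0.14 ± 0.29 with progesterone, or 0.03 ± 0.22 and 0.80 ± 0.22 with median-ratio scaling (limma adjusted p 0.19 for the latter). ephb4a was at 19.9, 20.1, 20.6, 23.3, 23.9 and 13.7 FPKM, and the ephb4b to ephb4a ratio within a library stayed between 1.39 and 2.28. The ephrin to Eph ratio was 0.758 and 0.667 in morphant DMSO libraries and 0.666 and 0.186 in progesterone, so its low value was in experiment 2 alone.

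EPHB3 (2 of 2) was at 17.7, 16.3, 19.6, 23.98, 17.9 and 17.3 FPKM, and was higher in both morphant DMSO libraries than in the others. ephb3a went the other way, at 8.42, 11.7, 6.88, 5.48, 8.94 and 2.32 FPKM, lower in both morphant DMSO libraries than in the uninjected pair. EPHB1 was lower in morphants in DMSO, at 2.19 and 0.840 against 4.05 and 2.52 FPKM, and was at 2.18 and 5.57 in progesterone. The remaining EphB genes were low: ephb2a and ephb2b ranged from 0.406 to 2.95 FPKM, and EPHB6, which did not pass the filter, reached 1.91.

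Of the 9 EphA genes, receptors mainly of ephrin-A, 5 were tested. epha4a, whose product also binds ephrin-B ligands, was at 7.97, 11.8, 12.4, 14.8, 11.3 and 19.96 FPKM, with both morphant DMSO libraries above the uninjected pair (log2 fold change 0.44 ± 0.40, limma adjusted p 1). epha4b was at 4.28, 46.5, 4.42, 3.30, 0.918 and 2.30 FPKM. Its level in the uninjected group rested on the 10 ng library, and the difference of that pair, 3.06 on the log2 scale after centring, was the widest of any tested guidance gene between uninjected libraries. EPHA2 (2 of 2) was at 8.79, 9.79, 12.8, 15.3, 9.72 and 13.6 FPKM, higher in morphant DMSO than in uninjected libraries, and epha2a ranged from 3.77 to 10.5 with no such order. epha7 lay between 1.57 and 5.35 FPKM, and epha3, epha4l, epha6 and epha8 did not pass 1.10 FPKM in any library.

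Secreted class 3 semaphorins were mostly low. Of 11 genes, 3 were tested, and the other 8 (sema3aa, sema3ab, sema3bl, sema3c, sema3fa, sema3fb, sema3ga and sema3h) did not exceed 1.22 FPKM. sema3d, which guides neural crest and axons in zebrafish, was at 2.93, 3.70, 4.02, 3.501, 5.89 and 1.08 FPKM, with all groups overlapping. sema3gb was at 0.530, 1.06, 3.51, 1.54, 0.336 and 0 FPKM, highest in both morphant DMSO libraries. The log2 fold change of sema3gb was 0.93 ± 0.51 with the morpholino (limma adjusted p 1) and -1.55 ± 0.51 with progesterone (limma adjusted p 0.18), and the groups did not overlap in either comparison. sema3e, known in other vertebrates as a ligand that binds plexin D1 without a neuropilin, was at 1.88, 2.06, 1.15, 0.889, 0 and 1.04 FPKM. The entry printed as PLXND1 was listed at 0 throughout. PLXNB3 (2 of 3), whose current name is plxnd1, was at 8.33, 7.93, 6.67, 7.48, 5.83 and 3.91 FPKM.

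The membrane semaphorin with the highest mean was sema6dl (ENSDARG00000011533), at 22.3, 24.3, 18.7, 14.9, 9.14 and 7.69 FPKM. The 3 groups did not overlap, uninjected above morphant DMSO and morphant DMSO above morphant progesterone. From uninjected embryos to morphants in progesterone the log2 fold change was -1.37 ± 0.31, a relative change of -0.70, and from DMSO to progesterone in morphants it was -0.91 ± 0.31 (limma adjusted p 0.19). Median-ratio scaling gave -0.65 ± 0.25 and -0.29 ± 0.25 for these. sema6ba and sema6e had lower levels, 1.29 to 7.33 and 1.19 to 4.65 FPKM, each lowest in both progesterone libraries. sema4ba was at 0.301 and 0.191 in progesterone libraries against 0.818 to 3.63 in the rest. By contrast sema5ba was at 1.28, 0.939, 0.623, 1.20, 1.39 and 3.13 FPKM, highest in both progesterone libraries, with a log2 fold change of 0.74 ± 0.48 against morphants in DMSO (limma adjusted p 0.38), or 1.17 ± 0.56 with median-ratio scaling.

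SEMA4C had the second highest mean of the membrane semaphorins, at 14.6, 13.5, 14.2, 10.5, 10.4 and 6.52 FPKM. In progesterone experiment 1 it was above sema6dl. sema4ab, SEMA4B (2 of 2), sema6a and sema6d ranged from 0.717 to 6.23 FPKM, and sema6d was lower in morphant DMSO (1.92 and 1.71) than in uninjected libraries (2.91 and 2.89). Another 8 membrane semaphorins (SEMA4D, sema4aa, sema4e, sema4f, sema5a, sema5bb, sema6bb and sema7a) averaged below the filter, with a highest value of 1.67 FPKM. The summed level of the class was 64.6, 70.9, 60.9, 49.7, 38.4 and 28.7 FPKM.

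Among the neuropilins, both nrp2 copies were lower in morphants in DMSO than in uninjected embryos in every library, without passing the test. nrp2a was at 139, 156, 80.2, 68.6, 131 and 69.4 FPKM. Both morphant DMSO libraries were below both uninjected ones, while progesterone experiment 1 lay near the uninjected level and experiment 2 near the morphant DMSO level. The log2 fold change was -0.98 ± 0.36 with the morpholino (relative change -0.90, limma adjusted p 1) and 0.36 ± 0.36 with progesterone (relative change 0.94, limma adjusted p 0.56). Scaled by median ratios, progesterone gave 1.02 ± 0.20 (limma adjusted p 0.14), and morphants in progesterone stood at 0.15 ± 0.20 from uninjected embryos. The share of all guidance FPKM that fell to nrp2a, which does not depend on library scaling, was 19.4% and 19.4% in uninjected, 12.9% and 11.4% in morphant DMSO and 20.05% and 17.3% in progesterone libraries.

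nrp2b (ENSDARG00000038446), the second copy, was at 29.1, 30.3, 19.2, 8.08, 12.05 and 9.75 FPKM, with all 4 morphant libraries below the uninjected pair. Its log2 fold change was -1.18 ± 0.44 with the morpholino (limma adjusted p 1) and -1.37 ± 0.44 for morphants in progesterone against uninjected embryos (limma adjusted p 0.15), the latter -0.64 ± 0.37 with median-ratio scaling. The neuropilin-1 genes had another order. nrp1a (ENSDARG00000071865), whose product also binds vascular endothelial growth factor, was at 21.6, 23.4, 23.0, 23.2, 14.1 and 11.2 FPKM, level between uninjected and morphant DMSO libraries and lower in both progesterone libraries. Its change was 0.04 ± 0.30 with the morpholino and -0.83 ± 0.30 with progesterone (limma adjusted p 0.19), which became 0.14 ± 0.24 and -0.20 ± 0.24 with median-ratio scaling. nrp1b was at 4.07, 5.29, 3.63, 4.46, 1.43 and 3.49 FPKM.

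Within a library the nrp2a to nrp1a ratio was 6.40 and 6.65 in uninjected, 3.48 and 2.95 in morphant DMSO and 9.28 and 6.21 in progesterone libraries. The morphant DMSO ratios were below all others, and uninjected and progesterone ratios overlapped. The ratio was chosen after the values were seen, so it has no test here. The nrp2a to nrp2b ratio, at 4.76, 5.14, 4.18, 8.49, 10.8 and 7.12, did not separate uninjected from morphant DMSO libraries.

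**Figure D4:**
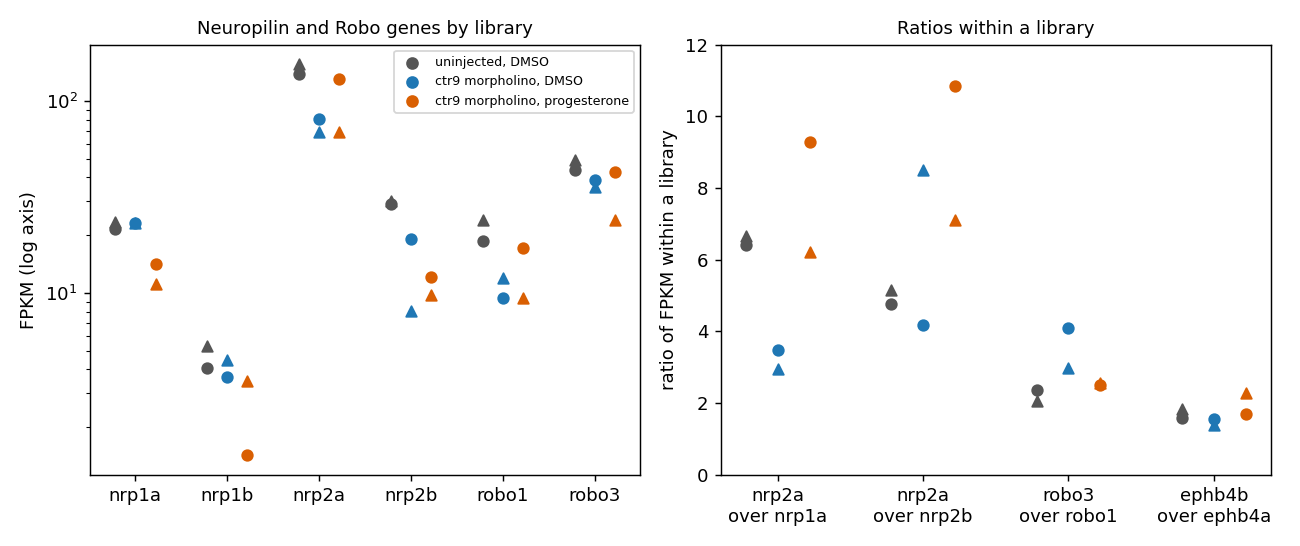
Left, FPKM (log axis) of the 4 neuropilin genes, robo1 and robo3 in each library. Right, ratios of FPKM within a library, where nrp2a over nrp1a is 2.95 and 3.48 in morphant DMSO libraries and at least 6.21 in the other 4.

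Plexins, the receptors that carry the semaphorin signal, had 12 tested members of 19. plxna3 (ENSDARG00000007172), which guides motor axons in zebrafish, was at 43.5, 48.3, 33.9, 33.0, 49.3 and 34.5 FPKM. Both morphant DMSO libraries were below every other library, though experiment 2 of progesterone was above them by under 2 FPKM. The log2 fold change was -0.44 ± 0.30 with the morpholino (limma adjusted p 1) and 0.30 ± 0.30 with progesterone (limma adjusted p 0.57). With median-ratio scaling the change with progesterone was 0.95 ± 0.20 (limma adjusted p 0.15). plxnb1a was at 8.29, 3.58, 3.15, 2.39, 1.17 and 0 FPKM, without overlap between groups. The change in plxnb1a from uninjected embryos to morphants in progesterone was -2.15 ± 0.56, the lowest relative change of a plexin in that comparison at -1.48, with a limma adjusted p of 0.13. plxna1 (ENSDARG00000061275) was at 21.7, 17.6, 13.6, 18.1, 9.29 and 4.24 FPKM, lowest in both progesterone libraries.

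The plexins did not share 1 order. PLXNA1 (3 of 3), of the same family name as plxna1, was at 23.3, 17.7, 14.2, 23.1, 22.7 and 12.8 FPKM, with all groups overlapping. PLXNB3 (3 of 3) was at 5.53, 10.3, 16.5, 13.97, 21.3 and 2.95 FPKM, higher in both morphant DMSO libraries than in the uninjected pair, with the progesterone libraries at either extreme. plxnb3 was at 1.61, 2.74, 2.48, 2.30, 0.644 and 0.0885 FPKM, and plxna4 at 2.24, 2.32, 2.32, 3.14, 3.85 and 2.85. The table holds 2 entries named plxnb2a, whose current names differ: si:dkey-183c2.5 for ENSDARG00000094799 and plxnb2a.1 for ENSDARG00000003811. The 1 with ENSDARG00000094799 was at 2.38 and 2.22 FPKM in uninjected libraries and at most 1.47 in morphants, and the other, ENSDARG00000003811, ranged from 3.54 to 6.84, and division of reads between them is not known. plxnb1b, PLXNB3 (2 of 3) and PLXNA1 (2 of 3) lay between 1.40 and 14.6 FPKM, and PLXNB2 (3 of 5), PLXNB2 (4 of 5), plxnb2b and plxnc1 did not pass 1.35.

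Slit ligands were the only ligand class whose summed level in both progesterone libraries was above both uninjected ones, at 14.7, 17.8, 16.0, 20.1, 20.04 and 18.6 FPKM, and no test was made of that sum. slit2 (ENSDARG00000004246) was at 5.97, 6.61, 7.18, 9.41, 10.1 and 7.49 FPKM, and all 4 morphant libraries were above the uninjected pair. Its log2 fold change was 0.34 ± 0.35 with the morpholino and 0.41 ± 0.35 for morphants in progesterone against uninjected embryos (limma adjusted p 0.46), the latter 1.10 ± 0.30 with median-ratio scaling (limma adjusted p 0.20). slit1a was at 6.59, 8.37, 5.25, 5.97, 8.19 and 6.64 FPKM, lower in morphant DMSO libraries than in both other groups. slit3 was at 1.43, 1.81, 2.63, 4.70, 0.202 and 4.45 FPKM, and slit1b did not pass 1.55.

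Of the Robo receptors, robo3 (ENSDARG00000005645), which in vertebrates lets axons cross the midline, was at 43.8, 49.4, 38.8, 35.5, 42.5 and 24.03 FPKM. Its log2 fold change with the morpholino was -0.32 ± 0.35, or -0.21 ± 0.20 with median-ratio scaling, with both morphant DMSO libraries below the uninjected pair. robo1 (ENSDARG00000026784) was at 18.6, 23.99, 9.46, 11.99, 17.1 and 9.37 FPKM. Here too morphant DMSO libraries were below the uninjected pair, by -0.93 ± 0.39 on the log2 scale (relative change -0.85, limma adjusted p 1), and the progesterone pair spanned the morphant DMSO values. The robo3 to robo1 ratio was 2.35 and 2.06 in uninjected, 4.10 and 2.96 in morphant DMSO and 2.49 and 2.56 in progesterone libraries, chosen after the values were seen.

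The table lists robo2 under 2 identifiers, and ENSDARG00000078366 varied within each group, at 5.64 and 0.909 in uninjected, 6.98 and 1.46 in morphant DMSO and 3.91 and 0 FPKM in progesterone libraries. ENSDARG00000014891 ranged from 0.219 to 1.503 FPKM. robo4, a Robo known from endothelium, ROBO3 (2 of 3) and ROBO3 (3 of 3) were measured below the filter, with a highest value of 1.89 FPKM. In the RefSeq gene order of assembly GRCz12tu, robo3 and robo4 are direct neighbours, as are robo1 and robo2, so the most abundant Robo gene adjoins 1 of the scarcest.

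The chemokine system was present on the receptor side. cxcr4b (ENSDARG00000041959), which guides the zebrafish lateral line primordium and germ cells, was at 5.13, 5.47, 6.44, 6.93, 11.4 and 3.15 FPKM. Morphant DMSO libraries were above the uninjected pair, and progesterone libraries were at either extreme. Its log2 fold change was 0.29 ± 0.55 with the morpholino and -0.10 ± 0.55 with progesterone (limma adjusted p 0.93), and the latter turned to 0.46 ± 0.42 with median-ratio scaling. cxcr4a, the other copy, did not pass 0.746 FPKM and was listed at 0 in 3 libraries. Both ligand genes were low: cxcl12a was at 0.656, 0.948, 0.0585, 0.872, 0 and 0 FPKM, and cxcl12b at 1.70, 1.49, 0.251, 0, 0 and 0.252. cxcl12b was thus above 1 FPKM in both uninjected libraries and in none of the others. It missed the filter and was left out of the main test, and in the alternative with no filter it was not called. Genes outside the rule carry the present name of Cxcr7, the receptor that clears Cxcl12: ackr3b was at 1.66, 2.09, 2.75, 2.53, 1.73 and 1.09 FPKM, and ACKR3 (2 of 2) did not pass 1.10.

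**Figure D5:**
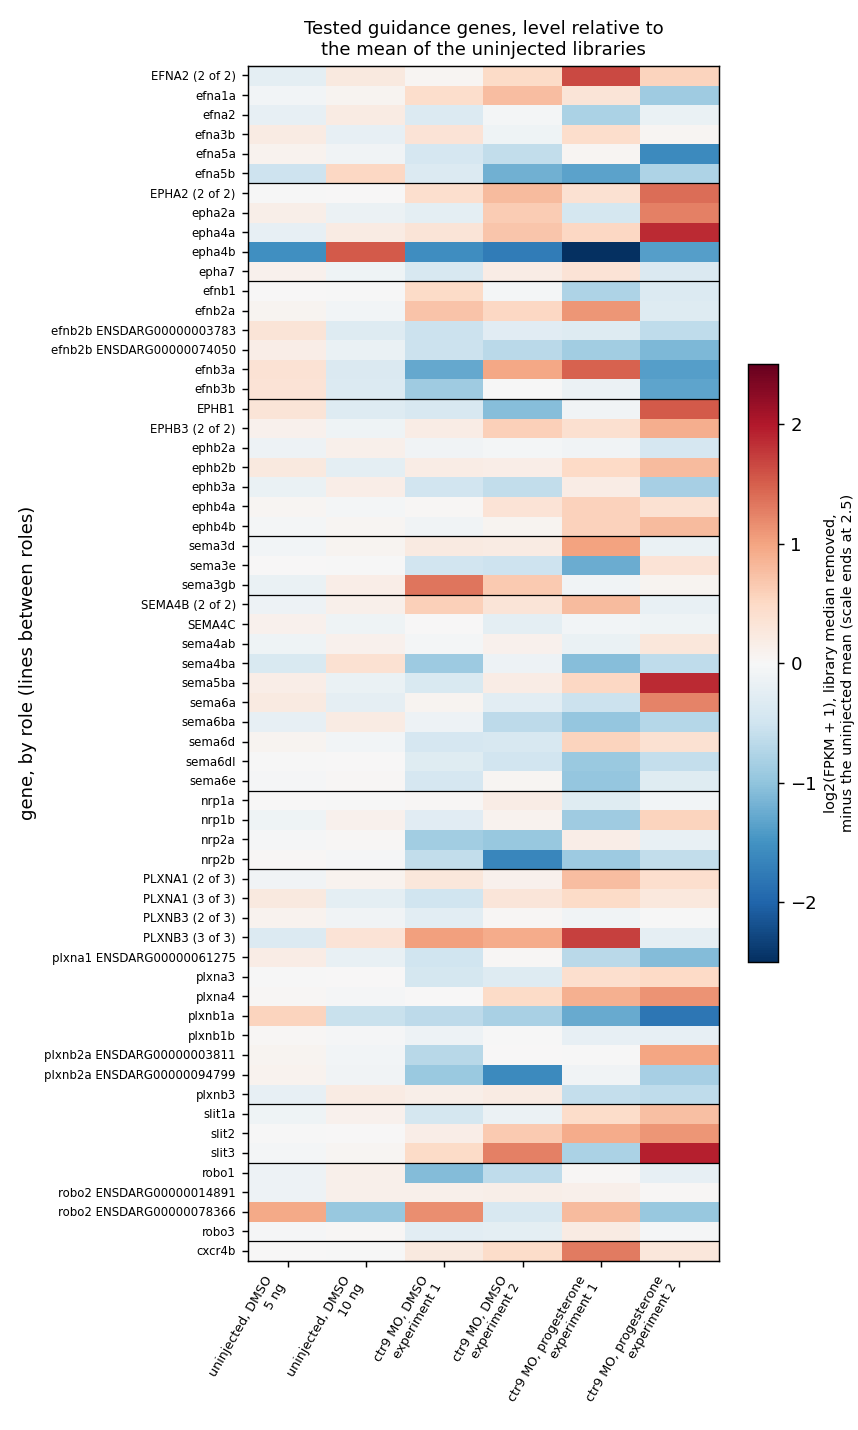
Heat map of log2(FPKM + 1) of the 61 tested guidance genes (rows, by role) in the 6 libraries (columns), each library less its median over all tested genes and each gene less its uninjected mean. The neuropilin rows show nrp2a and nrp2b low in both morphant DMSO columns, and most ephrin rows are low in progesterone experiment 2, where efna1a stands at 3.496 FPKM.

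Other guidance systems had no calls either. A list of 45 netrin, RGM, endothelin and other guidance gene names matched 37 entries, of which 20 were tested. Of these 20, 0 were called by limma in any comparison (background at most 0.0152%). Their median relative changes were 0.03, -0.04 and -0.05 in the 3 comparisons. At an unadjusted p under 0.05, 0 of these 20 were higher in each comparison (background 1.4%, 1.88% and 1.74%), and 0, 3 and 4 were lower (background 2.67%, 19.8% and 23.1%). With median-ratio scaling 0, 1 and 1 were higher (background 1.76%, 7.46% and 7.42%), and 2, 0 and 1 were lower (background 2.39%, 9.49% and 8.76%).

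After centring, the median absolute log2 difference between both libraries was 0.21 for guidance genes and 0.24 for all tested genes in uninjected, 0.31 and 0.36 in morphant DMSO, and 0.43 and 0.63 in progesterone libraries. In the progesterone libraries 2 and 4 tested guidance genes were listed at 0, 3.28% and 6.56% of the 61, against 5.99% and 13.6% of all tested genes. Guidance genes together took 0.195% and 0.224% of summed FPKM in uninjected, 0.173% and 0.170% in morphant DMSO and 0.181% and 0.184% in progesterone libraries.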

How the data were processed

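The authors deposited 1 table of FPKM values with gene identifiers, names and 6 library columns. Cutadapt, TopHat2 (2.0.11) and Cufflinks (2.2.1) are the programs listed per the submitters' processing notes, which mention builds Zv9 and hg19 without a role. The gene annotation release is not given in these sources. A repeated header row (1 row) was removed, leaving 33827 entries, of which 92 ERCC spike-ins were set aside and 33735 genes kept. Columns were assigned by their names. The labels list 7 samples, and the uninjected progesterone sample was not analysed here. The uninjected columns are named by 5 ng and 10 ng and carry no experiment number. Depth in fragments is unknown: the steps of values under 0.6 FPKM gave depths of 1.05 to 1.46 relative to the 5 ng library.

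Groups were compared with limma 3.58.1 under R 4.3.3 (linear model on 3 group means, eBayes with trend, two-sided) on log2(FPKM + 1), using 13145 genes that averaged 1 FPKM or more, and genes were called at a Benjamini-Hochberg adjusted p of at most 0.05. The script was tested on simulated data. Log2 fold changes refer to log2(FPKM + 1), come with their SE, and understate the change of low genes. An exact permutation test of 2 against 2 libraries cannot give a two-sided p under 0.333. All p-values reflect spread among these libraries alone, which may be technical.

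Members and lists were chosen with earlier results of these data known. Named with values were the 3 highest tested members of each system, the 6 highest and 6 lowest fold changes of each comparison, and all neuropilin, cxcl12, cxcr4 and Ephrin-B2 or EphB4 and EphA4 copies. Others are named to account for every member. Names are kept as the table prints them, and roles were set by the printed name. Of 102 identifiers, 80 were found in a table of current names, some of which differ. Among these, sema6d is sema6ca, sema6dl is SEMA6D, sema6e is SEMA6C, sema3bl is SEMA3G and PLXNB3 (2 of 3) is plxnd1. Further, epha8 is si:ch211-162h21.1 and ROBO3 (2 of 3) is zgc:77784. Alternatives were the pseudocount, the filter, library scaling, the replicate block and leaving out each library. A further list of downstream genes is not reported here.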

Additional observations from a re-analysis of the deposited data

How the results depend on the processing

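No guidance gene was called under any alternative except those that left out progesterone experiment 1. Leaving out 1 library at a time gave 0 called guidance genes with the morpholino, 0 to 14 with progesterone and 0 to 19 with both. Over all genes it gave 0 to 3, 0 to 4287 and 0 to 4555 calls. Median-ratio scaling was combined with leaving out a library only for the progesterone libraries. The ranges with progesterone and with both include those fits, and the change with the morpholino had none. The relative median of the guidance genes ranged from -0.25 to 0.026, from 0.08 to 0.28 and from -0.05 to 0.17 over the same alternatives. Without progesterone experiment 1 and with median-ratio scaling, 10 and 9 guidance genes and 2838 and 2642 of all genes were called with progesterone and with both. Without experiment 2 the all-gene counts were 24 and 62, or 21 and 80 with median-ratio scaling.

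Other settings left the count of called guidance genes at 0 and moved these counts over all genes. Against 2 calls with the morpholino, a pseudocount of 0.1 gave 0, a filter of 5 FPKM 1 and no filter 1. Against 0 with progesterone, median-ratio scaling gave 1 and a fit on the compared groups only 1. Against 2 with both, a pseudocount of 0.1 gave 0, a filter of 5 FPKM 28, no filter 1, median-ratio scaling 12, upper-quartile scaling 66 and the compared groups only 0. The filter of 5 FPKM also moved the relative median with progesterone from 0.10 to 0.28. Counts of guidance genes with separate groups depended on scaling. With progesterone, 3 higher and 24 lower became 15 and 15 with median-ratio scaling and 16 and 12 with centred libraries. With both, 3 and 30 became 17 and 15, and 16 and 14. The 2 scalings were added after the data were seen.

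With the experiment number as a replicate block, progesterone against DMSO called 3 of all genes, or 4 with median-ratio scaling, and 0 guidance genes in either. The main fit took no pairing by experiment number, and the block was an alternative to it. Same-numbered libraries deviated together only weakly, with a correlation of 0.076 over 13145 genes. With 2 libraries a group this cannot show whether they were paired. Of the values of single named genes under an alternative, 100 changed sign, all of genes not called with every library, and 1469 kept their direction and side of the threshold. The rest kept their direction and passed the threshold, all without progesterone experiment 1. Some values that changed sign there also passed it and are counted only among the 100, such as slit3 at 1.92 and plxna3 at 0.67 with both. The cause of these differences was not tested. With 2 libraries a group and the fragment depth unknown, a guidance gene that was not called is not shown to be unchanged.

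The log2 fold changes that changed sign follow. With median-ratio scaling the change with the morpholino was 0.035 for ephb4b. With median-ratio scaling the change with progesterone was 0.46 for cxcr4b, 0.38 for ephb4a, 0.36 for EPHB3 (2 of 2), 0.45 for robo3, 0.43 for nrp2b and 0.37 for EPHA2 (2 of 2). With median-ratio scaling the change with both was 0.61 for ephb4a, 0.23 for robo3, 0.037 for robo1, 0.15 for nrp2a, 0.61 for plxna3, 0.49 for efnb2a, 0.51 for slit3, 0.42 for sema6d and 0.68 for slit1a. With a pseudocount of 5 the change with both was 0.084 for slit3. With upper-quartile scaling the change with both was 0.081 for slit3 and 0.062 for slit1a. With the replicate block and median-ratio scaling the change with progesterone was 0.44 for cxcr4b, 0.36 for ephb4a, 0.34 for EPHB3 (2 of 2), 0.43 for robo3, 0.41 for nrp2b and 0.35 for EPHA2 (2 of 2). Leaving out each library in turn, the change with the morpholino ranged over -0.18 to 0.040 for ephb4b, -0.015 to 0.092 for nrp1a, -0.14 to 0.38 for plxnb3, -0.19 to 0.47 for efnb1, -0.37 to 0.062 for sema5ba and -0.088 to 0.50 for EFNA2 (2 of 2). Leaving out each library in turn, the change with progesterone ranged over -0.89 to 0.69 for cxcr4b, -0.041 to 0.32 for ephb4b, -0.64 to 0.12 for ephb4a, -0.61 to 0.19 for robo3, -0.17 to 0.63 for robo1 and -0.12 to 0.26 for slit2. It ranged over -0.095 to 0.81 for nrp2a, -0.77 to 0.38 for nrp2b, -1.76 to 0.23 for efnb2a, -1.92 to 0.26 for slit3, -2.04 to 0.46 for PLXNB3 (3 of 3) and -0.031 to 0.69 for sema6d. It ranged over -0.25 to 0.53 for epha4a and -0.40 to 0.91 for plxnb2a ENSDARG00000094799. Leaving out each library in turn, the change with both against uninjected embryos ranged over -0.60 to 0.98 for cxcr4b, -0.11 to 0.25 for ephb4b, -0.51 to 0.25 for ephb4a, -0.012 to 0.10 for EPHB3 (2 of 2), -0.40 to 0.10 for plxna3 and -1.21 to 0.78 for efnb2a. It ranged over -1.12 to 1.06 for slit3, -1.12 to 1.38 for PLXNB3 (3 of 3), -0.50 to 0.22 for sema6d, -0.16 to 0.14 for slit1a and -0.41 to 0.64 for EPHB1. Median-ratio scaling without progesterone experiment 1 left ephb4a at 0.31, EPHB3 (2 of 2) at 0.64, robo3 at 0.36, epha4b at 0.20, plxnb2a ENSDARG00000094799 at -0.34, nrp2b at 0.59, EPHA2 (2 of 2) at 0.90, slit3 at 1.08 and nrp1b at 0.64 with progesterone. Median-ratio scaling without progesterone experiment 1 left ephb4a at 0.53, robo3 at 0.14, nrp2a at 0.011, plxna3 at 0.67, nrp1a at 0.078, slit3 at 1.92, PLXNB3 (3 of 3) at -0.23, sema6d at 0.27, slit1a at 0.83 and nrp1b at 0.56 with both. Median-ratio scaling without progesterone experiment 2 left cxcr4b at 1.01, ephb4a at 0.45, EPHB3 (2 of 2) at 0.065, robo3 at 0.53, nrp2b at 0.27, efnb2a at 0.56, PLXNB3 (3 of 3) at 0.79 and efnb2b ENSDARG00000003783 at 0.11 with progesterone. Median-ratio scaling without progesterone experiment 2 left ephb4a at 0.66, robo3 at 0.30, robo1 at 0.12, nrp2a at 0.27, plxna3 at 0.53, efna1a at 0.41, efnb2a at 1.20, sema6d at 0.56, slit1a at 0.51 and EPHB1 at -0.096 with both.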
